A study of Mus musculus with 4 samples.

Results

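The Krüppel-like factors are zinc finger transcription factors, and 10 of their genes were followed here: Klf2, Klf3, Klf4, Klf5, Klf6, Klf7, Klf9, Klf10, Klf11 and Klf13. They were taken by symbol from the 53465 gene rows of the count table, and each symbol matched 1 Ensembl gene. The cells were B16, a mouse melanoma line, and poly(A) RNA was sequenced in 4 libraries. The 2 control libraries carry only the word control, and no source used here tells what those cells received or when they were collected. The 2 EM-plasma libraries came from cells given plasma treated with exosome-mimetic nanovesicles (EMs), as the label words it, for 4 h, and what the plasma was is not stated. No label says that the libraries were separate cultures, so each p-value reflects the spread of these 4 samples alone and that spread may be technical.

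Krüppel-like factors bind GC-rich DNA, the CACCC box and the related GC box, through 3 zinc fingers at the C-terminus that resemble those of the Sp factors. The rest of each protein differs and decides its partners. One group, with Klf2, Klf4, Klf5, Klf6 and Klf7, works mostly through acetyltransferases such as p300. Klf3 recruits the corepressor CtBP, and Klf9, Klf10, Klf11 and Klf13 recruit the corepressor SIN3A. Many of the genes respond quickly to growth factors, hormones or stress, and their products govern proliferation, quiescence and differentiation.

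The promoters of 3 members show the sequence setting of the family, namely Klf2, which had the highest fold change, Klf6, which was the most abundant, and Klf11, which had the lowest fold change. They are from RefSeq on GRCm38.p6, on the strand of the gene, and were cut to the bases before the first start annotated in RefSeq or GENCODE. Capitals mark GC boxes, CCAAT boxes and a match to the MEF2 site, each on either strand. The Klf2 stretch is chr8:72318812-72319032, the Klf6 stretch is chr13:5861239-5861481 and the Klf11 stretch is chr12:24651121-24651273, all on the plus strand.
Klf2: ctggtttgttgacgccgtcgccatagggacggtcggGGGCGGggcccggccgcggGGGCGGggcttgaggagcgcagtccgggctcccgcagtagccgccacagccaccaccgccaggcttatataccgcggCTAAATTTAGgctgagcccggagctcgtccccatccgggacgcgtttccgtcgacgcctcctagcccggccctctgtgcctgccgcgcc
Klf6: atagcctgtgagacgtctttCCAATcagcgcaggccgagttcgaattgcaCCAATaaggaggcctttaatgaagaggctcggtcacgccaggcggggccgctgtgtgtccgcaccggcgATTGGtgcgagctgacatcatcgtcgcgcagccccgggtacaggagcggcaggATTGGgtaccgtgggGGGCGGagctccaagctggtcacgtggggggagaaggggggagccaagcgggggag
Klf11: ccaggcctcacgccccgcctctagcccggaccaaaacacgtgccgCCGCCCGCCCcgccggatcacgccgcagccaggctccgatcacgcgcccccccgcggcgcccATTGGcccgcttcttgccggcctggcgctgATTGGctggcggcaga

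Promoter windows of 300 bases, from 250 before to 50 after the RefSeq start, were found for 8 of the 10 members, all but Klf5 and Klf10. A GC box (GGGCGG), which Klf and Sp proteins both bind, was in 7 of the 8 windows (all but that of Klf9), against 35.7% of all 32851 promoter windows. The CACCC box was in 5 of 8 windows, against 57.5% of all windows. In G and C content the members' windows ran from 58.3% to 77.7%, above the median window at 52.7%, and the part of this in the GC box count was not tested. CCAAT boxes were in 4 of 8 windows, against 37.4% of all, with 4 in Klf6, 3 in Klf9 and 2 each in Klf11 and Klf13. The match to the MEF2 site, where factors downstream of the kinase ERK5 bind, was in the Klf2 window alone of the 8 and in 3.19% of all windows. A TATA box (TATAAA), a cAMP response element (TGACGTCA) and the CArG box of serum response factor were in 0 of 8 windows, against 13.6%, 1.79% and 1.63% of all windows. The antioxidant response element (TGACNNNGC) was in the windows of Klf3 and Klf6, against 12.4% of all windows, and the E-box (CACGTG) in those of Klf4, Klf6 and Klf11, against 7.15%. All motifs were searched on both strands, and CACCC and GC boxes can overlap. These matches describe letters in a window, not binding.

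**Figure D1:**
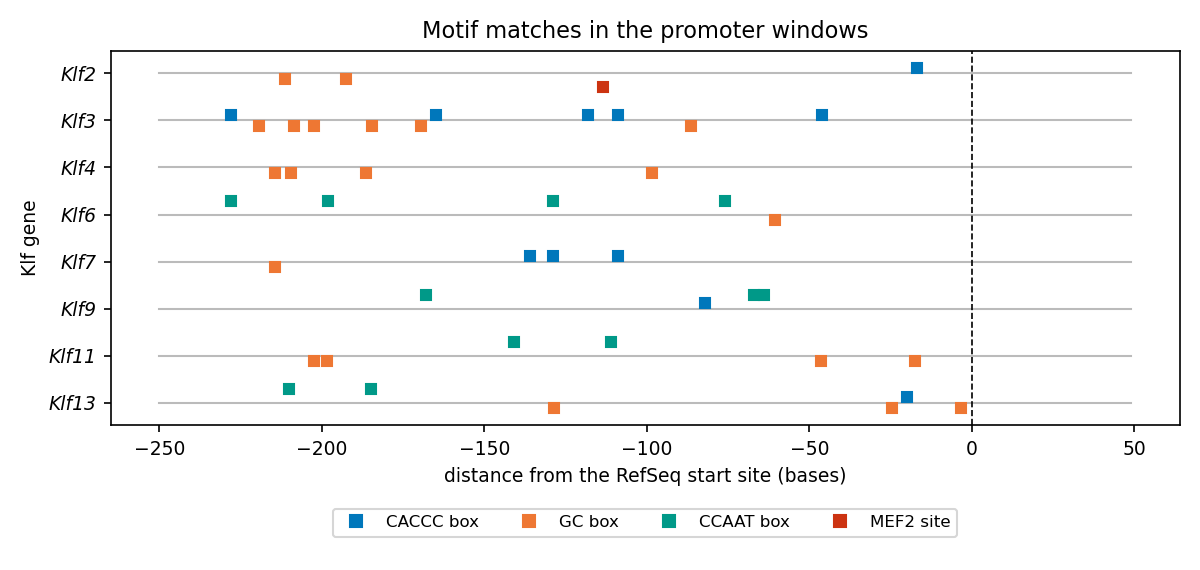
Positions of CACCC boxes (blue), GC boxes (orange), CCAAT boxes (teal) and MEF2 site matches (red) in the promoter windows of 8 Klf genes, by distance from the RefSeq start site in bases (x axis). GC boxes are in 7 of the 8 windows, and the MEF2 match is in Klf2 alone.

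All 10 genes had enough reads to be tested, so 0 of 10 were too low, and 0 of 10 passed the test of EM-plasma against control. The test was the quasi-likelihood test of edgeR, with p-values adjusted by Benjamini-Hochberg over all 13664 tested genes, of which 6.21% were called at an adjusted p below 0.05 (3.34% higher and 2.88% lower). DESeq2 also called 0. At an unadjusted p below 0.05 there were 2 members, Klf10 and Klf11, both lower, and 19.5% of all tested genes passed that line (9.84% lower and 9.7% higher). The median log2 fold change of the 10 genes was -0.045, against -0.0027 over all tested genes. Of the members 6 were below 0 and 4 above, and 50.9% of all tested genes were below 0. Both EM-plasma libraries lay outside the range of both controls in 7 of the 10 genes, against 49.1% of all tested genes. These were Klf2 and Klf6 higher (24.3% of all genes) and Klf3, Klf7, Klf9, Klf10 and Klf11 lower (24.8%). The RNA is from bulk culture, where fewer cells carrying a transcript and less transcript per cell cannot be told apart.

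**Figure D2:**
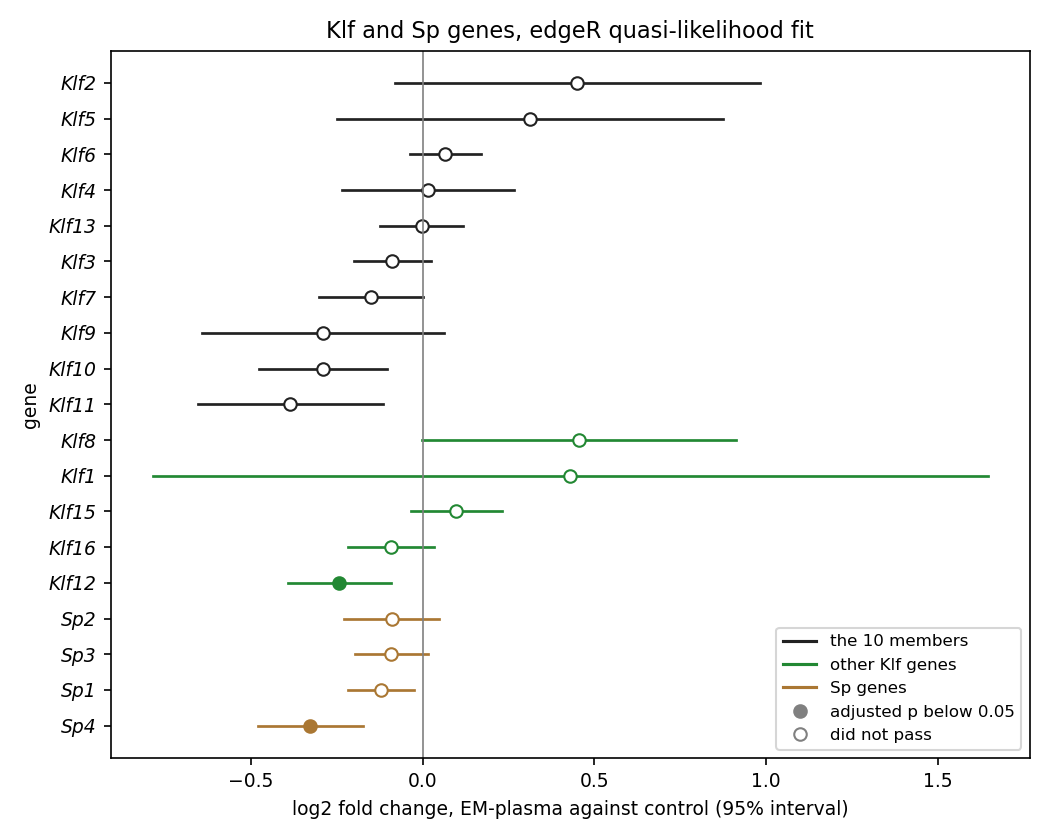
Log2 fold change of EM-plasma against control (x axis) with its 95% interval for the 10 Klf genes (black), the 5 other tested Klf genes (green) and the 4 tested Sp genes (brown), with filled points for an adjusted p below 0.05. All 10 black points are open, the intervals of Klf10 and Klf11 lie below 0, and the filled points are Klf12 and Sp4.

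Total counts per library ran from 46295133 to 49367932. The 7 melanocyte markers, Mitf, Sox10, Mlana, Pmel, Tyr, Tyrp1 and Dct, were all tested and summed to between 10988 and 11329 CPM (reads scaled to the library total after TMM). Klf2 and Klf4 are known from endothelium among other tissues, and of 6 endothelial markers Cdh5, Kdr and Tie1 had 0 reads in every library. The 6 summed to 0.163 to 0.190 CPM in controls and 0.129 CPM in both EM-plasma libraries. Of the 6 T and NK cell markers 5 had 0 reads in every library. The macrophage and leukocyte list, with 2 of 6 genes tested and Ptprc, Adgre1 and Itgam at 0 reads, summed to 1.2 to 1.69 CPM in controls and 1.59 to 1.93 CPM with EM-plasma. The fibroblast list, with 3 of 5 genes tested, summed to 27.6 to 29.3 CPM and 29.3 to 30.4 CPM. Most of that sum was Col1a2, at 25.0 and 23.0 CPM in controls and 24.3 and 23.8 CPM with EM-plasma. Dcn and Lum, on the same list, had 0 or 1 read per library. The part of these 2 lists in the values given here was not tested.

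Levels of different genes were compared as CPM per kilobase of the longest coding transcript. Klf6 was the most abundant member, at 29.8 ± 1.02 CPM per kilobase (SD, n = 2) in controls and 31.2 ± 0.889 with EM-plasma. Klf3 followed at 16.9 ± 0.0362 and 15.9 ± 0.654, and Klf13 at 10.06 ± 0.493 and 10.04 ± 0.0894. The order of Klf3 and Klf13 turned round when length was taken over all annotated exons, 11243 bases for Klf3 against 5221 in its longest coding transcript. Klf10, Klf7, Klf4 and Klf11 came next, at means over the 4 libraries of 4.77, 2.98, 2.48 and 1.53 CPM per kilobase. Down to Klf11 the libraries of each gene lay apart from those of the next gene. Klf2, Klf9 and Klf5 were the lowest, at 0.815, 0.784 and 0.535 CPM per kilobase, and the range of each overlapped those of the others. In controls Klf9 was above Klf2, at 0.863 against 0.688 CPM per kilobase.

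**Figure D3:**
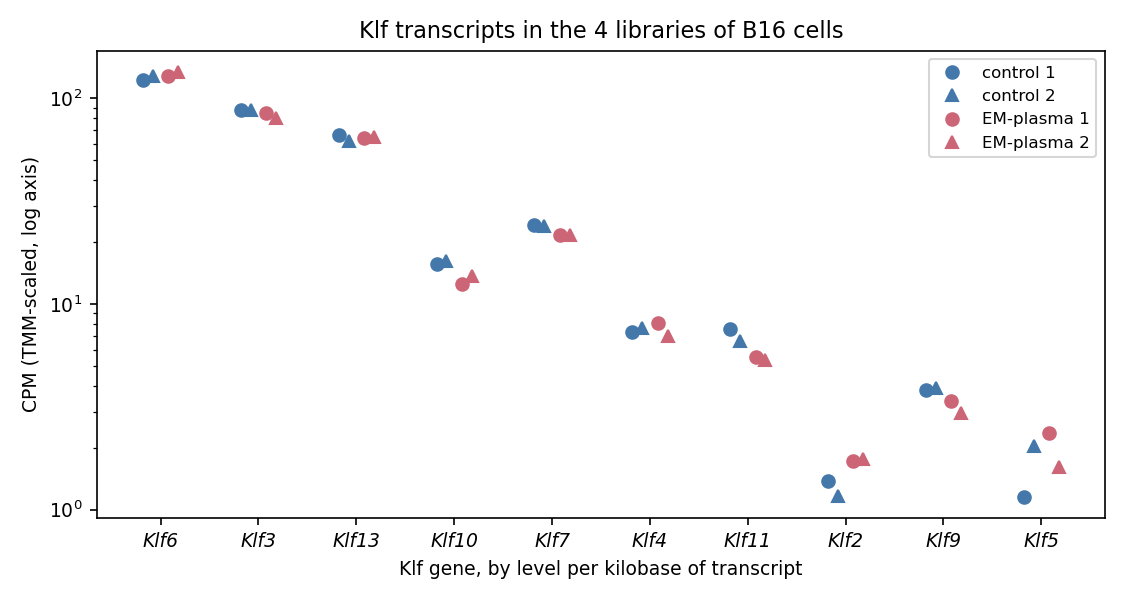
CPM on a log axis (y axis) in each of the 4 libraries for the 10 Klf genes, ordered by level per kilobase of transcript, with controls in blue, EM-plasma in red, circles for replicate 1 and triangles for replicate 2. Klf6 is highest at 122.7 to 134.3 CPM, Klf10 and Klf11 have both red points under both blue points, and the points of Klf5 are mixed.

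In the p300 group Klf6 (GRCm38 chromosome 13, 5861482 to 5870394, ENSMUSG00000000078), an immediate early gene that many tissues express, was at 122.7 and 128.8 CPM in the control libraries and 129.0 and 134.3 CPM with EM-plasma. The lower EM-plasma library was barely above the higher control. The log2 fold change was 0.067 (SE 0.050), with a 95% interval of -0.037 to 0.17 and an adjusted p = 0.513. Klf6 was at 0.028 without control 1, 0.036 without EM-plasma 2 and 0.10 without control 2. The longest transcript of Klf6 has a GC content of 42.4%, the lowest of the members, against a median of 49.5% over tested genes. When a trend of counts with GC content was removed from each library, Klf6 came to 0.11 and passed as higher (adjusted p = 0.0301).

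Klf2 (chromosome 8, 72319033 to 72321656, ENSMUSG00000055148), which keeps endothelium and T cells quiescent, had 68 and 55 reads in the controls and 80 and 82 with EM-plasma. These are 1.38 and 1.16 CPM against 1.72 and 1.76 CPM, and the groups did not overlap. The log2 fold change of 0.45 was the highest of the 10 members and had a wide error (SE 0.26, 95% interval -0.081 to 0.98, adjusted p = 0.357). At this depth a change of up to 1.98-fold upward was within the interval.

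Klf4 (chromosome 4, 55527143 to 55532466, ENSMUSG00000003032), a factor of epithelial differentiation and of reprogramming to pluripotency, was at 7.31 and 7.64 CPM in controls, inside the EM-plasma values of 8.11 and 7.0 CPM. Its log2 fold change was 0.016 (95% interval -0.23 to 0.27, adjusted p = 0.964). The sign of Klf4 was negative without control 1 (-0.019), without EM-plasma 1 (-0.094) and with the GC trend removed (-0.015). Klf5 (chromosome 14, 99298691 to 99315036, ENSMUSG00000005148), which drives proliferation of epithelial progenitors, was the least even between replicates, with 57 and 97 reads in controls and 110 and 75 with EM-plasma. Its CPM was 1.60 ± 0.628 against 1.99 ± 0.529 (SD, n = 2 each), and the groups overlapped. The log2 fold change of Klf5 was 0.31 (SE 0.27, 95% interval -0.25 to 0.87, adjusted p = 0.581). Leaving out control 1 gave -0.047 and leaving out control 2 gave 0.78. With EM-plasma 1 left out it was 0.011, and with EM-plasma 2 left out 0.56.

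Klf7 (chromosome 1, 64029447 to 64122282, ENSMUSG00000025959), a factor of neuron and axon development, was at 24.2 and 23.9 CPM in controls and 21.7 CPM in both EM-plasma libraries. Its replicates were close together, and both EM-plasma libraries were lower. The log2 fold change was -0.15 (SE 0.074) with a 95% interval of -0.30 to 0.00082 and an adjusted p = 0.259.

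Among the corepressor-recruiting members, Klf3 (chromosome 5, 64803388 to 64832901, ENSMUSG00000029178), a CtBP-dependent repressor, was at 88.0 and 88.2 CPM in controls and 85.3 and 80.5 CPM with EM-plasma. Both EM-plasma libraries were below both controls, and the log2 fold change of -0.088 did not pass (SE 0.055, 95% interval -0.20 to 0.024, adjusted p = 0.401) and was -0.048 without EM-plasma 2. Klf13 (chromosome 7, 63886351 to 63938915, ENSMUSG00000052040), a regulator of the chemokine gene Ccl5 in T cells, had both EM-plasma libraries, at 63.8 and 64.6 CPM, between the controls at 66.6 and 62.1 CPM. Its log2 fold change of -0.0023 had an interval of -0.12 to 0.12 (adjusted p = 0.99), or 0.919-fold to 1.09-fold. The value of Klf13 was above 0 without control 1 (0.045), without EM-plasma 1 (0.0059) and with a filter of at least 1 CPM in 2 libraries (0.0033), and it was -0.049 without control 2.

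Klf10 (chromosome 15, 38291463 to 38300706, ENSMUSG00000037465) and Klf11 (chromosome 12, 24651274 to 24662789, ENSMUSG00000020653) are the TGF-beta-inducible early genes of the family, and both repress the gene of the inhibitory SMAD, Smad7. Klf10 had 772 and 770 reads in controls and 581 and 635 with EM-plasma, or 15.7 and 16.2 CPM against 12.5 and 13.6 CPM. Both EM-plasma libraries were under both controls. The log2 fold change was -0.29 (SE 0.091, 95% interval -0.48 to -0.10), a level 1.22-fold lower, and its adjusted p = 0.0533 did not pass. Klf11 had 372 and 314 reads in controls and 258 and 248 with EM-plasma, or 7.56 and 6.62 CPM against 5.53 and 5.33 CPM. Its EM-plasma libraries were lower and close together, with the lowest log2 fold change of the members, -0.39 (SE 0.13, 95% interval -0.65 to -0.12, adjusted p = 0.0798), a level 1.31-fold lower.

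Each of the 4 fits with 1 library left out gave a negative sign for Klf10 and Klf11, with log2 fold changes from -0.36 to -0.23 for Klf10 and from -0.47 to -0.29 for Klf11. Neither passed in these fits (adjusted p from 0.0965 to 0.595 and from 0.192 to 0.40). With the GC trend removed both passed as lower, at -0.28 (adjusted p = 0.023) for Klf10 and -0.38 (adjusted p = 0.0404) for Klf11. That fit called 818 genes higher and 928 lower, in place of 456 and 393. The GC contents of the longest transcripts of Klf10 and Klf11 are 46.9% and 48.9%.

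Klf9 (chromosome 19, 23141226 to 23168134, ENSMUSG00000033863), a target of the glucocorticoid and thyroid hormone receptors, had 188 and 186 reads in controls and 157 and 138 with EM-plasma. These are 3.82 and 3.92 CPM against 3.37 and 2.96 CPM, with both EM-plasma libraries lower. The log2 fold change of -0.29 was like that of Klf10 with a larger error (SE 0.17, 95% interval -0.64 to 0.063, adjusted p = 0.375). Of the 4 members given above as SIN3A-recruiting, 3 had values between -0.39 and -0.29 that did not pass, and Klf13 was near 0. They were not tested as a group.

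**Figure D4:**
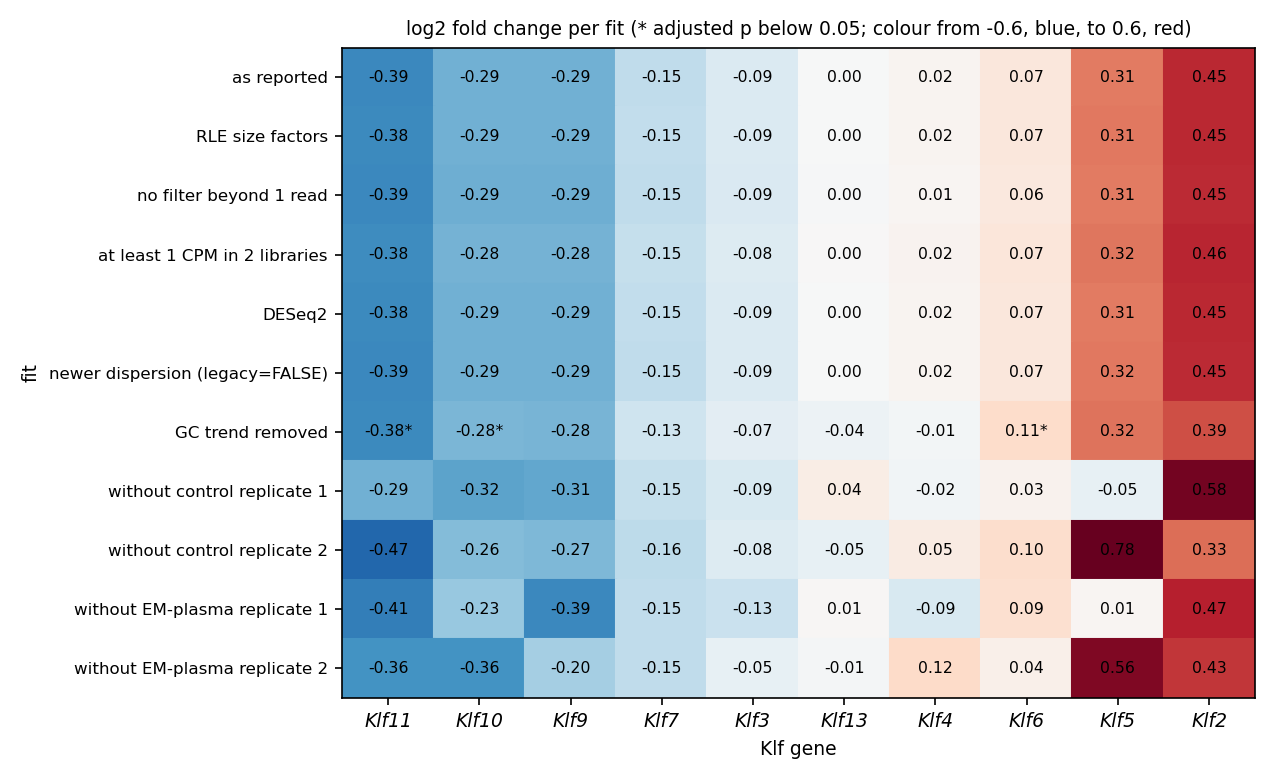
Log2 fold change of each of the 10 Klf genes (columns) in the reported fit and in the 10 alternatives that have no replicate block (rows), with blue for lower and red for higher in EM-plasma and an asterisk for an adjusted p below 0.05. Among these rows asterisks appear for Klf10, Klf11 and Klf6 with the GC trend removed, and Klf4, Klf5 and Klf13 change sign between fits.

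Klf3, Klf7, Klf9 and Klf13 have other annotated genes within their bounds, and these held at most 17 reads in any library. The largest overlap was that of Gm26649, on the opposite strand with 3196 bases of exon in common with Klf7. It had 0 or 1 read per library, against 1008 to 1192 for Klf7. The gene Gm20033, on the opposite strand with 404 bases of exon in common with Klf3, had 4 to 8 reads per library, against 3746 to 4331 for Klf3. The strand setting of the counts is not given. Whether reads in these shared bases were counted for Klf3 and Klf7 is therefore not known, and their levels per kilobase carry that limit.

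Other genes of the family, its partners, its inputs and its targets were counted in lists, which were chosen with earlier results of these data known. Genes of these lists that were not called are named as examples chosen after their values were seen. Over all tested genes 3.34% were called higher and 2.88% lower. Without a filter beyond 1 read only 13 genes were called higher and 1 lower in all, and every call named in these lists was lost. Of the 7 other Klf genes 5 were tested, and 0 were called higher and 1 lower. Klf12, a CtBP-recruiting repressor (chromosome 14, 99870632 to 100284679, ENSMUSG00000072294), had 27.9 and 27.3 CPM in controls and 22.4 and 24.3 CPM with EM-plasma. The groups did not overlap, and Klf12 fell by 0.24 on the log2 scale (SE 0.073, adjusted p = 0.0441). It was not called with any 1 library left out (adjusted p from 0.122 to 0.654) nor by DESeq2 (adjusted p = 0.137). Klf8, which also recruits CtBP, had 79 and 103 reads in controls and 121 and 120 with EM-plasma, a value of 0.46 that did not pass (SE 0.22, adjusted p = 0.257). Klf1, Klf15 and Klf16 did not pass either, at 0.43, 0.098 and -0.091 (adjusted p = 0.755, 0.433 and 0.446). Klf14 and Klf17 had 0 reads in all libraries, which allows at most 0.0609 to 0.0644 CPM.

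Sp factors bind the same GC boxes. Of 9 Sp genes 4 were tested, with 0 higher and 1 lower and a median of -0.11. Sp4, best known in neurons, fell from 26.9 ± 1.40 to 21.5 ± 0.130 CPM (SD, n = 2 each), by 0.33 on the log2 scale (SE 0.074, adjusted p = 0.00633). Both EM-plasma libraries of Sp4 were below both controls. With any 1 library left out it did not pass (adjusted p from 0.0663 to 0.143). Sp1, the founding member, was at 197 ± 2.52 and 181 ± 4.09 CPM (-0.12, adjusted p = 0.13), and Sp2 and Sp3 were at -0.090 and -0.091.

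Of 11 genes for corepressors and coactivators that Klf proteins use, 0 passed in the reported edgeR fit or with DESeq2. The reported fit called 6.21% of all tested genes. In that fit 3 of the list had an unadjusted p below 0.05, all lower: Sin3a, Hdac2 and Kat2b. That line was passed by 19.5% of all tested genes, 9.84% of them all being lower. With the GC trend removed these 3 were called lower (adjusted p = 0.0125, 0.0446 and 0.0236), in a fit that called 928 genes lower in all. Without control 1 the deacetylase gene Hdac2 was at -0.23 and the acetyltransferase gene Kat2b at -0.22 on the log2 scale. Ctbp1, the gene with the most reads of the list, was at 263 ± 10.4 CPM in controls and 273 ± 8.22 CPM with EM-plasma (adjusted p = 0.57). Sin3a, which encodes the corepressor of the Klf10 and Klf11 group, was at 127 ± 0.554 and 115 ± 2.82 CPM (-0.14, adjusted p = 0.0988).

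Enzymes reported to add or remove ubiquitin on Klf proteins gave 2 higher and 1 lower of 11 tested genes, with a median of -0.0077. Of all tested genes 3.34% were higher and 2.88% lower. Fbxo32, an F-box gene whose product targets KLF4, rose from 4.91 ± 0.307 to 6.85 ± 1.13 CPM (adjusted p = 0.0392). Smurf1, a HECT ligase gene of the SMAD pathway, rose 1.14-fold (adjusted p = 0.0253), and Wwp1, whose product acts on KLF2 and KLF5, was 1.13-fold lower (adjusted p = 0.0457). With any 1 library left out Smurf1 and Wwp1 did not pass (adjusted p from 0.0504 to 0.559 and from 0.0562 to 0.68). Fbxo32 passed only with EM-plasma 1 left out, and DESeq2 called neither Fbxo32 nor Wwp1 (adjusted p = 0.145 and 0.0663).

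ERK5 and the MEF2 factors switch on Klf2 and Klf4, and 0 of 8 genes of this list were called in the reported edgeR fit or with DESeq2. At an unadjusted p below 0.05 there was 1, Mapk7, which encodes ERK5 itself (0.16, adjusted p = 0.151). Over all tested genes 6.21% were called in the reported fit, and 19.5% had an unadjusted p below 0.05. Mef2c, with the most reads of the list, was at 148 ± 6.86 and 140 ± 3.17 CPM (-0.077, adjusted p = 0.427).

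In the TGF-beta list 2 of 13 tested genes rose and 0 fell, against 3.34% and 2.88% of all tested genes. The median was -0.028, with 10 genes below 0 and 3 above, while 50.9% of all tested genes were below 0. Smad7 was at 17.2 and 13.7 CPM in controls and 20.2 and 21.3 CPM with EM-plasma. Both EM-plasma libraries were above both controls, and Smad7 rose by 0.42 on the log2 scale (SE 0.093, adjusted p = 0.00495). It did not pass without control 2 (adjusted p = 0.208) or EM-plasma 2 (0.0736). Ski, a SMAD corepressor gene, rose 1.11-fold (adjusted p = 0.0398) and did not pass with any 1 library left out (adjusted p from 0.0525 to 0.664). The receptor genes Tgfbr1 and Tgfbr2 and the transducers Smad2, Smad3 and Smad4 had values from -0.10 to -0.0024 and did not pass. Tgfb2, at 24.9 ± 1.57 and 21.8 ± 0.783 CPM, had an unadjusted p below 0.05 and did not pass (-0.19, adjusted p = 0.141). Tgfb1 and Tgfb3 were at -0.27 and -0.028 (adjusted p = 0.594 and 0.889).

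Among the glucocorticoid receptor gene and its immediate targets, 1 of 7 tested genes rose and 0 fell, against 3.34% and 2.88% of all tested genes. Sgk1, a kinase gene that serum also induces, was at 26.1 and 24.8 CPM in controls and 39.2 and 39.5 CPM with EM-plasma. The groups lay far apart, and Sgk1 rose 1.55-fold (log2 0.63, SE 0.067, adjusted p = 2.61e-07). It passed with each of the 4 libraries left out in turn. Dusp1, a phosphatase gene, was at 6.33 ± 0.665 and 8.25 ± 0.128 CPM with no overlap (0.38, adjusted p = 0.0622), and with the GC trend removed it was called higher (adjusted p = 0.0375). The receptor gene itself, Nr3c1, was at 102 ± 5.59 and 92.3 ± 0.967 CPM (-0.15, adjusted p = 0.108). Fkbp5 and Tsc22d3, also targets of the receptor, were at -0.027 and -0.046 (adjusted p = 0.841 and 0.875).

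Of 29 genes reported as direct targets of Klf proteins 25 were tested. The median was -0.074 with 15 genes below 0, against 50.9% of all tested genes below 0. In this list 5 rose and 0 fell, against 3.34% and 2.88% of all tested genes. Lgals3, the galectin-3 gene that Klf3 represses in other cells, rose from 8.62 ± 1.28 to 14.1 ± 0.622 CPM, or 1.63-fold (SE 0.11 on the log2 scale, adjusted p = 6.94e-05). Odc1, the first enzyme of polyamine synthesis, rose 1.17-fold (adjusted p = 0.00134), and Ccnd1, the cyclin D1 gene, 1.15-fold (adjusted p = 0.00652). Smad7 is also on this list, as are Tgfb1, Tgfbr1 and Tgfbr2 from the TGF-beta list, which were not called. Atf3, a stress factor gene named after its values were seen, rose 1.37-fold (adjusted p = 0.016). Without control 2, 0 of the 25 genes were called higher, with an adjusted p = 0.0961 for Lgals3, which passed in the other 3 such fits. Odc1, Ccnd1 and Atf3 each passed in 1 of the 4 (adjusted p from 0.0454 to 0.282, from 0.0417 to 0.345 and from 0.0239 to 0.262), and DESeq2 did not call Atf3 (adjusted p = 0.0654). The cell cycle inhibitor gene Cdkn1a was at 225 ± 4.75 and 225 ± 3.96 CPM (adjusted p = 0.984), and Ccl5, the Klf13 target, at 2.86 ± 0.114 and 2.32 ± 0.180 CPM (adjusted p = 0.43). The endothelial target Thbd had 0 reads in every library.

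**Figure D5:**
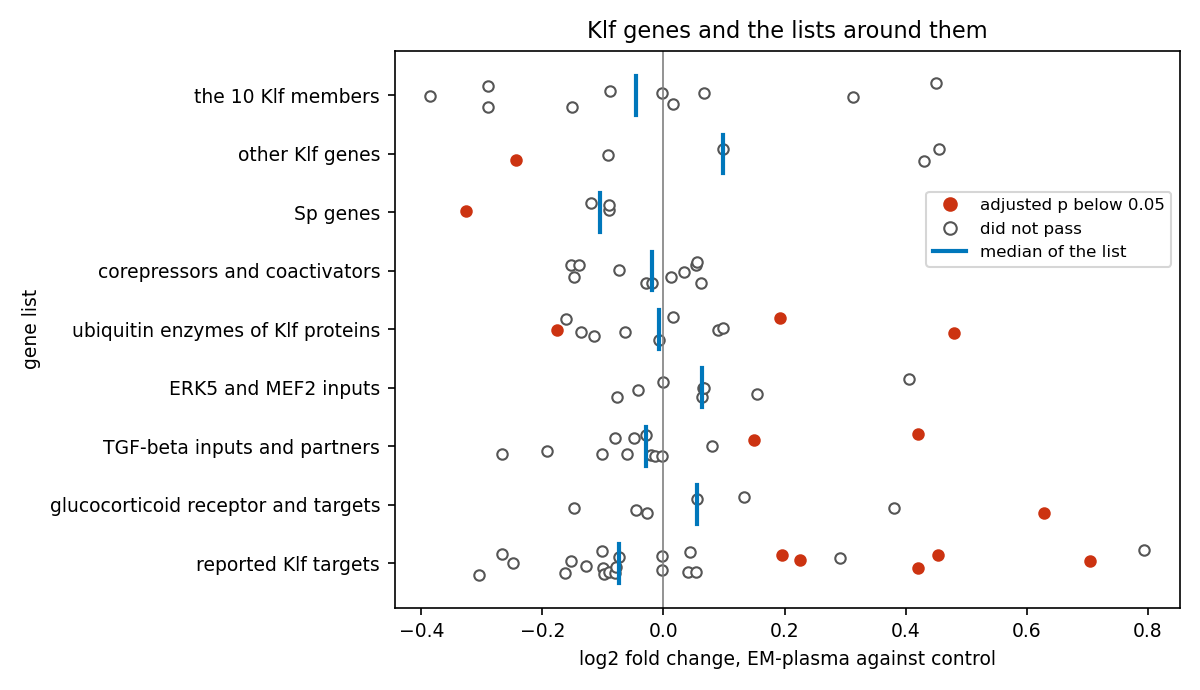
Log2 fold change of EM-plasma against control (x axis) for the tested genes of the 10 Klf members and of 8 lists around them, with red points for an adjusted p below 0.05 and a blue bar at the list's median. The first row has no red point, while the reported Klf targets hold 5 and the ubiquitin enzymes 3. Over all tested genes 6.21% were called.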

How the data were processed

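GRCm38 is the build in the submitters' processing notes, which also list CASAVA, TopHat2 2.1.1, HTSeq and edgeR without roles. Annotation release and strand setting: not given in the sources used here. Raw read counts per Ensembl gene, 1 column per library, and a scaled signal table for each library were deposited by the authors. The deposited signal equalled the counts times 1 constant per library and served only to check columns. Symbols, positions and transcripts came from GENCODE M21 (GRCm38).

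Genes kept by filterByExpr were scaled by TMM and tested with edgeR 4.0.16 (R 4.3.3), quasi-likelihood F test, legacy dispersion, group alone, two-sided, called at an adjusted p below 0.05. The error of a log2 fold change is its size over the root of F. The spread behind it came mostly from all tested genes together, with a median of 25.5 of 27.5 degrees of freedom. It is therefore not the replicate spread of the 1 gene alone. CPM uses the tested total times the TMM factor. The alternatives included DESeq2 1.42.0 and a lowess GC offset. Intervals and limits for 0 reads cover counting error and the spread of these libraries only.

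The members and lists were chosen with earlier results of these data known. Named genes are all members and, in each other list, up to 4 called genes by adjusted p or else the most abundant one. Other genes named in the lists fall outside this rule and were chosen after their values were seen. Genes most like a called member were to be named, and no member was called.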

Additional observations from a re-analysis of the deposited data

How the results depend on the processing

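Klf2, Klf3, Klf6, Klf7, Klf9, Klf10 and Klf11 kept their direction in all 12 alternatives, while Klf4, Klf5 and Klf13, none of them called in any, did not. In 5 alternatives with all 4 libraries (other size factors, no or a stricter filter, DESeq2, the newer dispersion) and in the 4 without a library 0 members were called. With the GC trend removed 1 member was called higher, Klf6 (0.11), and 2 lower, Klf10 (-0.28) and Klf11 (-0.38). The replicate numbers are not stated to mark a shared culture, and the deviations of replicate 1 in both groups correlated at 0.205 over 10017 genes. With the replicate block 2 members were called lower, Klf10 (-0.29, adjusted p = 0.012) and Klf11 (-0.38, adjusted p = 0.0349), and 832 genes higher and 851 lower in all. In the lists the calls that the replicate block added included Sp1, Sin3a, Hdac2, Kat2b and Nr3c1 as lower and Mapk7, Dusp1 and Pdgfa as higher. With the replicate block and the GC trend removed 1 was called higher, Klf6 (0.11, adjusted p = 0.00356), and 2 lower, Klf10 (-0.28) and Klf11 (-0.38), with 1140 genes higher and 1343 lower. The GC trend alone gave 818 and 928. With no filter 13 genes were called higher and 1 lower, and DESeq2 called 277 higher and 280 lower. Fits without 1 library called 48 to 258 genes higher and 23 to 289 lower, with 1 sample left in an arm and assumed to vary like the other group. The cause of these shifts was not tested. Depth limits Klf2 and Klf5 most, at 55 to 110 reads per library.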

Other observations

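The 3-prime UTRs of the 10 Klf transcripts, taken from the coding transcript with the longest one, all held the AU-rich pentamer ATTTA, which is found in many short-lived mRNAs. Of 11333 tested genes with a 3-prime UTR of at least 100 bases 72.3% held it. The median density was 1.79 per kilobase over the members and 1.37 over all these genes, and the members' UTRs were longer (median 2718.5 against 1253 bases). Klf7 had 18 copies in 6266 bases and Klf10 had 4 in 1492, the densest of the members at 2.87 and 2.68 per kilobase. Klf5 and Klf13 were the sparsest, at 0.543 and 0.582. The longer element TTATTTATT was in 0 of the 10 and in 8.68% of all these genes.

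Per kilobase of transcript, Klf6 made up 41.0% and 42.4% of the summed level of the 10 genes in the controls and 43.5% and 45.2% in the treated libraries. Klf10 made up 7.27% and 7.43% against 5.83% and 6.37%. Klf3 made up 23.8% and 23.5% against 23.3% and 21.9%. These shares were not tested, and as parts of 1 sum they are not independent of each other.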
